A study of Mus musculus with 19 samples.

Results

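Zfp is the mouse symbol for zinc finger protein genes. The genes described here are those whose symbol is Zfp followed by a number, together with Rsl1, a gene of the same family with a name of its own, and whose deposited value averaged at least 2 over all 19 libraries. They were thus chosen by name and by that mean, and Rsl1 was added with its values in these libraries known, so its levels are given as a description with no p in the comparisons of groups. Of 19486 genes in the table, 352 matched by name and 235 passed the mean; the other 117 did not, and 1 of those was listed at 0 in every library. The mean used every library, so a gene could pass through a single group: 15 of the 235 averaged under 2 in the 13 libraries outside the OFF groups and 35 averaged under 2 in the 6 OFF libraries. For those genes, a p between an OFF group and another group describes values that the choice also used. Just inside the mean lay Zfp784 (2.16) and Zfp956 (2.18), and just outside it Zfp619 (1.996) and Zfp229 (1.995). All 235 passed the filter on low values (a value of at least 1 in at least 3 libraries).

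The series holds RNA-seq of 19 mouse liver samples, each with the tissue label hepatocellular carcinoma (HCC). The groups are MYC_Recur (3 libraries), MYC_Twist1_OFF (3), MYC_OFF (3), MYC_Twist1_HCC (5) and MYC_HCC (5); MYC is an oncogenic transcription factor and Twist1 a transcription factor of epithelial to mesenchymal transition. The labels give no strain, age, sex, treatment or time for any group, do not say what drives MYC or Twist1 or in which cells, and do not tell 1 animal from several within a group, so the p-values rest on a spread between samples that may be technical. The 10 MYC_Twist1_HCC and MYC_HCC libraries come from an older deposit and the 9 OFF and Recur libraries from a new one, so deposit and group cannot be told apart where an OFF or Recur group is set against an HCC group.

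A C2H2 zinc finger is a short loop held by a zinc ion between cysteines and histidines, and arrays of such fingers read DNA sequence. Many mouse family members also carry a KRAB domain, which binds the corepressor Trim28; Trim28 brings the histone methyltransferase Setdb1 and heterochromatin proteins to the bound DNA, and transposable elements are the best known targets. KRAB zinc finger genes arose by repeated duplication and lie in clusters. In mouse liver Rsl1 (regulator of sex-limitation) is a KRAB repressor known for holding down genes that are more active in males.

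Promoters of the members were taken from RefSeq (GRCm38.p6 assembly, the coordinates of mm10, in which the submitters' processing notes place the data). A window of 250 bases before to 50 after the start site was on hand for 186 of the 235. The letters CACGTG, which read the same on both strands and are the canonical site of MYC with its partner MAX, were found in 16 of the 186 (8.6%), against 7.24% of 27025 promoters of all genes. The promoters of all genes were not held to the mean of 2 that chose the members. No other motif was searched and this one has no overlap with another. The sequences below are 50 bases of promoter each, 5′ to 3′ on the strand of the gene, with CACGTG in capitals. Zfp207 and Zfp512 are shown because both were called in both OFF comparisons, in opposite directions, and the others because 7 of the 9 promoters on hand in 1 run of members on chromosome 17 held the motif.
Zfp207, chr11:80383231-80383280, plus strand: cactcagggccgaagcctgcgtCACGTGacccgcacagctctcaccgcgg
Zfp512, chr5:31452355-31452404, plus strand: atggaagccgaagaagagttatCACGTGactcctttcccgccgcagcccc
Zfp820, chr17:21845851-21845900, minus strand: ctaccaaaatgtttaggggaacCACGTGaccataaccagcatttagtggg
Zfp947, chr17:22166021-22166070, minus strand: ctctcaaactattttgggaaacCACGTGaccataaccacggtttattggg
Zfp946, chr17:22424170-22424219, plus strand: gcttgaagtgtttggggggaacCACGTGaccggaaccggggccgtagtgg
Zfp943, chr17:21962491-21962540, plus strand: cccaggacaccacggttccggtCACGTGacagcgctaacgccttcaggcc
Zfp758, chr17:22361402-22361451, plus strand: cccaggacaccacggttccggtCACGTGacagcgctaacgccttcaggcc
The 50 bases of Zfp943 and Zfp758 are the same letters at different places. Each of these sites also lies in a promoter on the opposite strand, that of Zfp942 for Zfp943 and that of Zfp944 for Zfp758, and Zfp292 has 2 sites, so the 16 promoters hold 15 distinct sites. A match is a description of the letters and does not show binding. The 250 bases before the start of Rsl1, the member with the largest difference, hold 4 CG pairs and no CACGTG.
Rsl1, chr13:67172932-67173181, plus strand: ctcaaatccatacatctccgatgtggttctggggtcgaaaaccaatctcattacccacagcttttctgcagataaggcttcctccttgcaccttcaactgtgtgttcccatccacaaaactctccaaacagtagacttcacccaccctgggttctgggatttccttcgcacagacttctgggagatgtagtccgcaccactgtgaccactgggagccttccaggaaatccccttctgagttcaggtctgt

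Deposited values are normalized signals whose unit is not given, and they summed to between 507868 and 690310 per library; the sequencing depth is unknown. No 2 libraries were identical. The hepatocyte markers (9 of 9 in the table) summed to 4565 to 5565 in MYC_Recur, 1059 to 1197 in MYC_Twist1_OFF, 1002 to 1584 in MYC_OFF, 3234 to 5242 in MYC_Twist1_HCC and 5255 to 10295 in MYC_HCC, and none was at 0 throughout a group. Myc stood at 156 ± 3.14 in MYC_Recur, 39.7 ± 6.65 in MYC_Twist1_OFF, 45.7 ± 13.1 in MYC_OFF, 125 ± 19.3 in MYC_Twist1_HCC and 160 ± 19.2 in MYC_HCC (SD, n = 3, 3, 3, 5 and 5). Twist1 was at most 0.27 in every library, and between 0 and 0.12 in MYC_Twist1_HCC against 0.01 to 0.27 in MYC_HCC, so its values do not separate the libraries labelled Twist1. MYC_HCC 4 and 5 stood apart from the other 3 MYC_HCC libraries; among the members, Zfp36l1 read 116 and 51.5 in them and 23.8 to 24.9 in the other 3. Where the call of a named member was rerun without these 2 libraries and lost, the loss is given.

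The 235 genes together took 0.285% to 0.385% of the summed values in MYC_Recur, 0.49% to 0.907% in MYC_Twist1_OFF, 0.506% to 0.575% in MYC_OFF, 0.283% to 0.390% in MYC_Twist1_HCC and 0.276% to 0.348% in MYC_HCC. The share was thus higher in all 6 OFF libraries than in the other 13, with the members summing to 2849 to 3454 in MYC_OFF, Rsl1 included. Without Rsl1 the members summed to 1916 to 2178 in MYC_Recur, 2149 to 3279 in MYC_Twist1_OFF, 1741 to 2677 in MYC_OFF, 1614 to 2000 in MYC_Twist1_HCC and 1596 to 1882 in MYC_HCC, ranges that overlap between MYC_OFF and each HCC group. By group mean, 77 members (32.8%) were highest in MYC_Recur and 65 (27.7%) in MYC_Twist1_OFF, beside 31% and 18.4% of all tested genes. Another 19 (8.1%) were highest in MYC_OFF, 27 (11.5%) in MYC_Twist1_HCC and 47 (20%) in MYC_HCC, beside 11.2%, 12.1% and 27.3%. The median SD of the members within a group was 0.322 to 0.428 on the log2(value + 1) scale, beside 0.294 to 0.423 for all tested genes.

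MYC_OFF against MYC_HCC asks how the tumors labelled OFF differ from MYC tumors. Of the 235 members, 61 were higher and 75 lower in MYC_OFF (limma, Benjamini-Hochberg adjusted p under 0.05 over all 13253 genes tested). The members were called about as often as genes in general, at 57.9% beside 58.3% of all genes tested; 26% of members were higher, beside 18.9% of all genes, and 31.9% lower, beside 39.4%. The median log2 fold change was -0.08 for the members and -0.38 for all genes. Because the mean of 2 that chose the members was taken over every library, OFF included, part of this split comes with the choice. Without the 15 members that averaged under 2 outside the OFF groups, 48 of 220 were higher (21.8%) and 75 lower (34.1%), beside 14.1% and 46.8% of the 10638 tested genes held to the same mean. Of the 185 members that averaged at least 2 both in and outside the OFF groups, 48 were higher (25.9%) and 45 lower (24.3%), beside 15.9% and 43.5% of 9418 genes. The values as deposited carry a shift between these groups: scaling by the median of ratios moved the median of all genes by 0.43, and then 90 members were higher and 51 lower, beside 28.9% and 26.7% of all genes; with trimmed-mean scaling the shift was 0.30, with 81 higher and 58 lower, beside 25.8% and 30.7% of all genes. In bulk tumor RNA, fewer cells of a type and less RNA per cell cannot be told apart. The fall of the hepatocyte markers, of which 6 of 9 were called lower and 0 higher, moved with these differences and its part in them was not tested. Summed neutrophil markers were higher, and erythroid markers lower, in every MYC_OFF library than in every MYC_HCC library. The sums of the other cell type lists overlapped, and none of these was tested for its part either.

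MYC_Twist1_OFF against MYC_Twist1_HCC asks the same of the tumors labelled Twist1 and shares no library with the comparison above. Here 43 members were higher and 62 lower in MYC_Twist1_OFF, 44.7% of the members beside 46.6% of all genes. The higher share was 18.3%, beside 13.1% of all genes, and the lower share 26.4%, beside 33.5%. The median log2 fold change was -0.12 for the members and -0.32 for all genes; with median-of-ratios scaling, which moved the all-gene median by 0.34, 65 were higher and 34 lower, beside 21.6% and 20.9% of all genes, and with the trimmed mean (shift 0.20) 59 and 46, beside 18% and 25.8%. Of the 185 members that averaged at least 2 both in and outside the OFF groups, 34 were higher (18.4%) and 37 lower (20%), beside 10.2% and 38.9% of the genes held to the same means. Of the hepatocyte markers 5 were lower and 0 higher. Summed endothelial, neutrophil, T and NK cell, and stellate cell and fibroblast markers were higher in every MYC_Twist1_OFF library than in every MYC_Twist1_HCC library. Cholangiocyte and erythroid sums were lower without overlap, and macrophage and B cell sums overlapped. Their part in the differences was not tested. Without MYC_Twist1_OFF 1 the counts were 29 higher and 38 lower.

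Set side by side, both OFF comparisons called 37 of the same members higher and 56 lower, and none went opposite ways. The 37 are 60.7% of the rises in the MYC tumors and 86% of those in the Twist1-labelled tumors; the 56 are 74.7% and 90.3% of the falls. Over all tested genes these shares were 58.1% and 84.3% of the rises and 76.6% and 90% of the falls, so the overlap of the members' calls was near that of genes in general. Of the members 15.7% were higher and 23.8% lower in both, beside 11% and 30.2% of all tested genes. These counts move with the scaling, to 63 and 29 with median of ratios (all genes 19.1% and 18.4%) and 56 and 41 with the trimmed mean (16% and 22.6%). Without MYC_HCC 4 and 5 they were 33 and 60. A further 43 members (18.3%, beside 17.1% of all genes) were called in the MYC comparison alone and 12 (5.11%, beside 5.4%) in the Twist1-labelled comparison alone, shares near those of all genes.

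**Figure D1:**
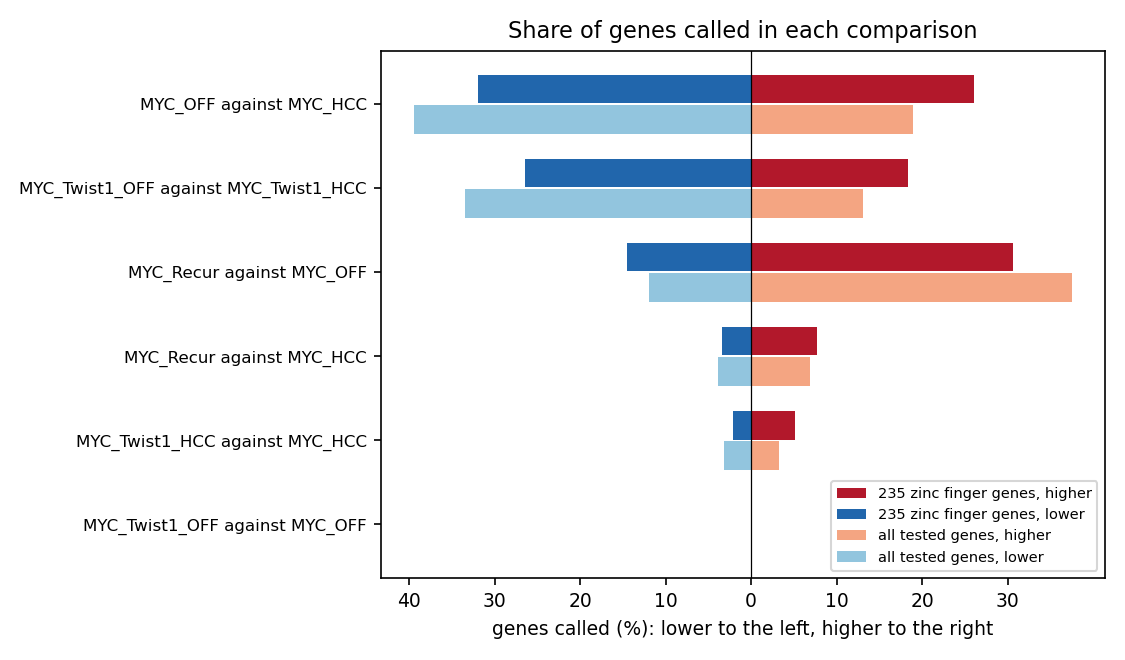
Percent of the 235 zinc finger genes (dark bars) and of all 13253 tested genes (light bars) called lower (to the left) and higher (to the right) in each of 6 comparisons at an adjusted p under 0.05 in limma. In both OFF comparisons the members have a longer bar to the right and a shorter one to the left than all genes (26% and 31.9% beside 18.9% and 39.4% in MYC_OFF against MYC_HCC), and no member was called in MYC_Twist1_OFF against MYC_OFF.

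**Figure D2:**
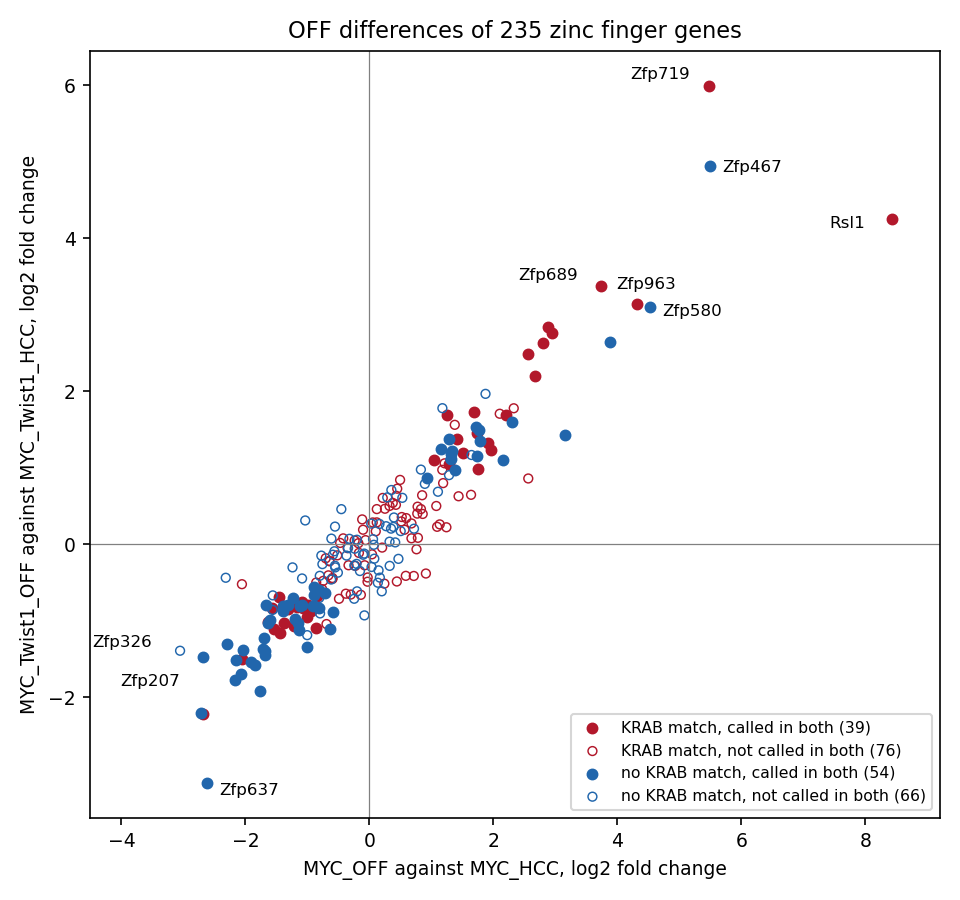
Log2 fold change of each of the 235 genes in MYC_OFF against MYC_HCC (x axis) and in MYC_Twist1_OFF against MYC_Twist1_HCC (y axis); red marks genes with a KRAB match and blue those without, and filled points were called in both comparisons (39 of 115 with and 54 of 120 without). Every filled point lies at the upper right or the lower left of the 0 lines, with Rsl1, Zfp719 and Zfp467 farthest up and to the right.

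Rsl1 read 778, 559.7 and 1108 in MYC_OFF, against 1.75, 0.82, 2.29, 0.96 and 0.91 in MYC_HCC. It read 766, 1327 and 1572 in MYC_Twist1_OFF, against 119, 22.9, 69.7, 32.5 and 132 in MYC_Twist1_HCC. It read 16.4, 35.3 and 54.2 in MYC_Recur. All 6 OFF libraries therefore lay above all 13 others, every MYC_Recur and MYC_Twist1_HCC library lay above every MYC_HCC library, and MYC_Recur and MYC_Twist1_HCC overlapped. On the log2(value + 1) scale the fold change was 8.43 ± 0.50 (SE) in MYC_OFF against MYC_HCC and 4.24 ± 0.50 in MYC_Twist1_OFF against MYC_Twist1_HCC. MYC_Twist1_HCC stood 4.76 ± 0.43 above MYC_HCC, while MYC_Twist1_OFF lay 0.58 ± 0.56 above MYC_OFF, where the libraries overlap. The interaction of OFF and Twist1, the second OFF difference minus the first, was -4.18 ± 0.70, a description since Rsl1 was added with its levels known. Over the alternative fits this estimate lay between -4.92 and -3.88, and no call is read from it. MYC_Recur and MYC_OFF are both new deposits, and between them the log2 fold change of Rsl1 was -4.59 ± 0.56.

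Zfp719, a KRAB zinc finger gene on chromosome 7, was higher in both OFF groups. It read 46.3, 164 and 39.8 in MYC_OFF, against 0.7, 0, 0.58, 0.71 and 0.83 in MYC_HCC, a log2 fold change of 5.48 ± 0.79 (limma adjusted p = 1.35e-05). In MYC_Twist1_OFF it read 44.9, 620.4 and 452, against 5.96, 0, 3.92, 5.62 and 1.99 in MYC_Twist1_HCC, a log2 fold change of 5.99 ± 0.79 (adjusted p = 1.39e-05). Its OFF libraries spanned more than a 10-fold range and none overlapped another group, since MYC_Recur read 0.15, 0.93 and 6.09. Zfp467 is a C2H2 protein without a KRAB match that favours fat over bone cell formation in mouse marrow. It averaged under 2 outside the OFF groups and passed the mean through them, so it is described with no p. It read 14.3, 280.1 and 184 in MYC_OFF, against 1.29, 0.37, 0.67, 1.16 and 2.26 in MYC_HCC (5.49 ± 0.70). In MYC_Twist1_OFF it read 83.6, 216 and 65.1, against 6.1, 1.62, 3.83, 1.37 and 1.31 in MYC_Twist1_HCC (4.95 ± 0.70). The lowest OFF library, MYC_OFF 1, was still above the highest of the other 13.

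Zfp963, a KRAB gene on chromosome 8, read 27.8, 36.3 and 77.3 in MYC_OFF, against 1.04, 0.5, 0.83, 2.66 and 1.5 in MYC_HCC. It read 51.3, 47.7 and 79.0 in MYC_Twist1_OFF, against 7.93, 8.18, 9.32, 1.76 and 4.66 in MYC_Twist1_HCC. Both differences passed, at 4.32 ± 0.42 (limma adjusted p = 2.61e-07) and 3.14 ± 0.42 (1.48e-05), with no overlap between OFF and other libraries. Other large rises in MYC_OFF against MYC_HCC were those of Zfp580 (4.53 ± 0.75), Zfp329 (3.88 ± 0.47), the KRAB gene Zfp689 (3.74 ± 0.89) and Zfp512 (3.16 ± 0.47), and each was also called in MYC_Twist1_OFF against MYC_Twist1_HCC, at 3.10 ± 0.75, 2.65 ± 0.47, 3.38 ± 0.89 and 1.43 ± 0.47. For Zfp512 the libraries of that second comparison overlapped. Zfp689 was high outside the OFF groups as well, since MYC_Recur 2 read 114 where the highest OFF library read 92.8. In the Twist1-labelled comparison the largest rises also took in the chromosome 17 gene Zfp947 (2.83 ± 0.57, limma adjusted p = 6.44e-04) and Zfp935, 1 of 2 members with a KRAB match and no counted finger (2.76 ± 0.64, adjusted p = 0.00198).

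Over the whole set, 12 members (5.1%, beside 3.5% of all tested genes) had every OFF library above every other library. They were Rsl1, Zfp719, Zfp467, Zfp963, Zfp329, Zfp451, Zfp593, Zfp738, Zfp87, Zfp157, Zfp612 and Zfp69. In 34 members (14.5%, beside 20.8% of all genes) every OFF library lay below every other library. The shares over all tested genes were not held to the mean of 2 that chose the members and that used the OFF libraries. Rsl1 was added with its levels known, and Zfp467 and Zfp738 passed through the OFF groups, so part of the 12 comes with the choice. Zfp593, whose yeast relative takes part in the export of the large ribosomal subunit, read 15.4, 26.7 and 21.4 in MYC_OFF, against 10.2, 5.59, 9.43, 4.83 and 9.53 in MYC_HCC (1.33 ± 0.29, limma adjusted p = 8.09e-04), and 35.3, 16.8 and 23.5 in MYC_Twist1_OFF, against 6.76 to 15.1 in MYC_Twist1_HCC (1.21 ± 0.29, adjusted p = 0.00257). Zfp451, known in human cells as a SUMO ligase, was 2.30 ± 0.30 and 1.60 ± 0.30 higher in the same comparisons (limma adjusted p = 5.12e-06 and 3.60e-04).

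**Figure D3:**
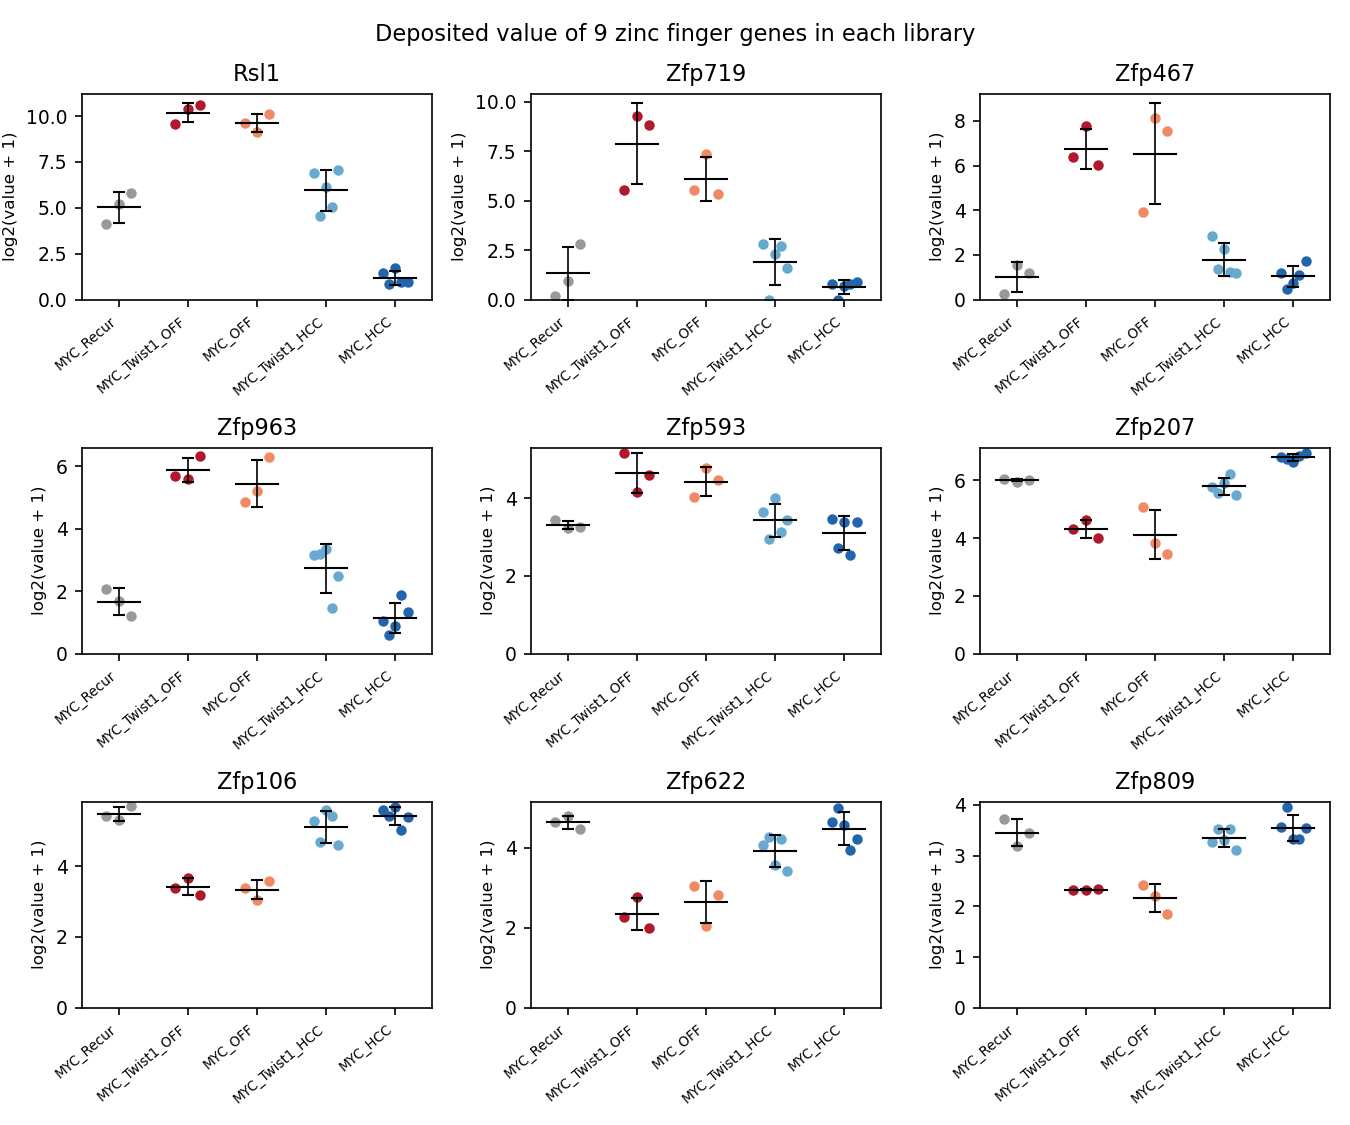
Log2(value + 1) in each library (points) for 9 of the zinc finger genes, by group, with the group mean (long bar) and SD (error bar). Rsl1, Zfp719, Zfp467, Zfp963 and Zfp593 are highest in the OFF groups, with all 6 OFF libraries above all 13 others, and Zfp207, Zfp106, Zfp622 and Zfp809 are lowest there.

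Among the falls in the OFF groups, Zfp207, a spindle protein that binds Bub3 at kinetochores, read 32.4, 13.3 and 9.88 in MYC_OFF, against 110.03, 105, 99.3, 115 and 123 in MYC_HCC (-2.68 ± 0.27, limma adjusted p = 4.35e-07). It read 19.1, 23.7 and 14.99 in MYC_Twist1_OFF, against 53.95, 46.2, 59.6, 73.9 and 43.7 in MYC_Twist1_HCC (-1.48 ± 0.27, adjusted p = 3.11e-04). No OFF library reached any other library. Zfp706, a small protein known in mouse embryonic stem cells for opposing self-renewal, read 14.9, 8.02 and 10.7 in MYC_OFF, against 84.9, 82.3, 83.7, 63.8 and 74.4 in MYC_HCC (-2.72 ± 0.43, limma adjusted p = 3.43e-05), and 12.5 to 14.1 in MYC_Twist1_OFF, against 29.1 to 237 in MYC_Twist1_HCC (-2.21 ± 0.43, adjusted p = 4.43e-04). Zfp637 averaged under 2 in the OFF libraries and passed the mean through the others, so it is described with no p. It had the largest fall in MYC_Twist1_OFF against MYC_Twist1_HCC, with 2.56, 2.4 and 0.91 in MYC_Twist1_OFF against 16.02, 48.7, 20.2, 13.5 and 34.99 in MYC_Twist1_HCC (-3.12 ± 0.42). Its log2 fold change in MYC_OFF against MYC_HCC was -2.63 ± 0.42. Its OFF libraries overlapped no other library.

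Zfp326, in human cells part of a complex that links transcript elongation to splicing, read 3.07, 0.56 and 0.98 in MYC_OFF, against 15.6, 22.5, 29.02, 14.6 and 13.8 in MYC_HCC (-3.05 ± 0.56). It averaged under 2 in the OFF libraries and passed the mean through the others, so no p is given for its OFF differences. It was lower in MYC_Twist1_HCC than in MYC_HCC as well, and the second OFF comparison did not pass (0.1 to 0.96 in MYC_Twist1_OFF, against 1.67 to 5.12 in MYC_Twist1_HCC). Zfp777, a KRAB gene, read 0.03 to 0.83 in MYC_OFF, against 4.78 to 13.03 in MYC_HCC (-2.69 ± 0.34), and 0.14 to 0.58 in MYC_Twist1_OFF, against 2.46 to 7.83 in MYC_Twist1_HCC (-2.22 ± 0.34). It was low in MYC_Recur too, which read 0.47, 0.8 and 0. Zfp575 was listed at 0 in all 6 OFF libraries and in 4 of 5 MYC_Twist1_HCC libraries, against 7.85, 3.66, 12.3, 1.39 and 1.34 in MYC_HCC. Zfp362 (-2.30 ± 0.28), Zfp523 (-2.17 ± 0.28) and Zfp692, in human cells a repressor that answers to AMPK signalling (-1.76 ± 0.29), were lower in MYC_OFF than in MYC_HCC and lower in MYC_Twist1_OFF than in MYC_Twist1_HCC, at -1.31 ± 0.28, -1.78 ± 0.28 and -1.92 ± 0.29.

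Zfp106, an RNA-binding protein that mouse motor neurons and muscle need, read 9.41, 7.28 and 10.9 in MYC_OFF, against 47.1, 41.6, 49.6, 31.3 and 40.5 in MYC_HCC (-2.08 ± 0.24, limma adjusted p = 1.27e-06), and 8.08 to 11.7 in MYC_Twist1_OFF, against 23.4 to 46.9 in MYC_Twist1_HCC (-1.70 ± 0.24, adjusted p = 2.42e-05). Zfp622, whose yeast relative takes part in the maturation of the large ribosomal subunit, had log2 fold changes of -1.84 ± 0.29 and -1.58 ± 0.29 in these comparisons (limma adjusted p = 3.11e-05 and 2.52e-04); it read 3.12 to 7.26 in MYC_OFF, against 14.3 to 31.1 in MYC_HCC. The ubiquitin ligase gene Zfp91 fell in both (-1.61 ± 0.20 and -0.99 ± 0.20). Zfp598, a ubiquitin ligase that acts on collided ribosomes, fell in MYC_OFF against MYC_HCC (-1.37 ± 0.28), and its call in MYC_Twist1_OFF against MYC_Twist1_HCC (-0.80 ± 0.28, limma adjusted p = 0.0259) was lost under both other scalings and without MYC_Twist1_HCC 3 or 4 or MYC_Twist1_OFF 2 or 3. Zfp335, a nuclear protein linked to human microcephaly, averaged 3.03 in MYC_OFF and 4.94 in MYC_HCC and did not pass (adjusted p = 0.121). Zfp318, which mouse B cells need to make IgD, was called lower in MYC_OFF against MYC_HCC (-0.55 ± 0.21, limma adjusted p = 0.0335), a call lost under both other scalings, without MYC_HCC 4 and 5 together, and without MYC_HCC 2, MYC_HCC 4 or any MYC_OFF library.

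Of the CCCH proteins that bind AU-rich elements and promote mRNA decay, Zfp36 read 3.64, 3.89 and 3.71 in MYC_OFF, against 8.02, 11.8, 6.81, 16.6 and 9.92 in MYC_HCC (-1.24 ± 0.27, limma adjusted p = 8.71e-04). Zfp36l1 read 17.4, 11.9 and 9.48 in MYC_OFF, against 24.9, 23.8, 24.7, 116 and 51.5 in MYC_HCC (-1.56 ± 0.40, adjusted p = 0.00284), and without the 2 high MYC_HCC libraries the call held. Zfp36l2 read 15.5, 15.03 and 7 in MYC_OFF, against 26.8, 23.8, 25.96, 19.3 and 18.8 in MYC_HCC (-0.89 ± 0.23, adjusted p = 0.00267), a call lost with median-of-ratios scaling. In MYC_Twist1_OFF against MYC_Twist1_HCC, Zfp36l1 did not pass (adjusted p = 0.0855), and the calls of Zfp36 (-0.70 ± 0.27, limma adjusted p = 0.0432) and Zfp36l2 (-0.67 ± 0.23, limma adjusted p = 0.0216) were lost under both other scalings. The Zfp36 call was also lost without MYC_HCC 5, MYC_Twist1_HCC 1, 2 or 4 or MYC_Twist1_OFF 1 or 3, and the Zfp36l2 call without MYC_Twist1_OFF 1.

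Among KRAB proteins with known targets, Zfp809, which silences retroviruses in mouse cells through their primer binding site, read 4.36, 3.62 and 2.62 in MYC_OFF, against 10.9, 14.6, 9.07, 9.02 and 10.7 in MYC_HCC (-1.38 ± 0.20, limma adjusted p = 1.31e-05). It read 4.02, 3.97 and 4.05 in MYC_Twist1_OFF, against 8.68, 10.5, 8.87, 10.6 and 7.66 in MYC_Twist1_HCC (-1.02 ± 0.20, adjusted p = 4.53e-04), and the OFF libraries lay below all others. Zfp568, which represses a placental Igf2 transcript in mice, read 25.02, 21.5 and 18.7 in MYC_OFF, against 11.8 to 30.8 in MYC_HCC, and passed in none of the comparisons. Zfp445, which keeps imprints in mouse embryos, read 5.75, 3.7 and 11.8 in MYC_Twist1_OFF, against 9.5 to 14.3 in MYC_Twist1_HCC (-0.71 ± 0.27, limma adjusted p = 0.0405), a call lost under both other scalings and without MYC_Twist1_HCC 2, 3 or 4 or MYC_Twist1_OFF 1 or 2. Among transcription factors, Zfp410, an activator of the chromatin remodeller gene Chd4, was lower in both OFF groups (-2.04 ± 0.31 and -1.39 ± 0.31, limma adjusted p = 2.92e-05 and 0.00167), with 0.54 to 2.1 in MYC_OFF, against 6.31 to 8.47 in MYC_HCC. Chd4 itself averaged 99.03 ± 42.6 in MYC_OFF and 95.99 ± 23.2 in MYC_HCC (SD, n = 3 and 5; limma adjusted p = 0.993). Zfp143, an activator of many promoters, was called higher in MYC_OFF (0.89 ± 0.35, limma adjusted p = 0.0376), but MYC_OFF 1 read 32.3 where the other 2 read 8.02 and 7.05, and the groups overlapped. The call was lost without MYC_OFF 1, without MYC_HCC 1, 4 or 5, and without MYC_HCC 4 and 5 together. Zfp148, Zfp281 and Zfp217 passed in neither OFF comparison.

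MYC_Recur against MYC_OFF asks how the tumors labelled Recur differ from those labelled OFF, within the new deposit. Of the members 72 were higher and 34 lower in MYC_Recur, 45.1% beside 49.4% of all genes; 30.6% were higher, beside 37.5%, and 14.5% lower, beside 12%. The median log2 fold change was 0.35 for the members and 0.45 for all genes. This split turned with the scaling: with median of ratios, which moved the all-gene median by -0.53, 45 were higher and 70 lower, beside 20.8% and 22.5% of all genes, and with the trimmed mean (-0.39) 54 and 59, beside 24.8% and 19%, so no direction is given for the set. Without MYC_OFF 1 the lower count was 22. This comparison shares the MYC_OFF libraries with MYC_OFF against MYC_HCC, so members high in MYC_OFF tend to have a negative fold change in it by construction, and the values of MYC_Recur itself are given here. Hepatocyte markers were called higher in 5 of 9 and lower in none.

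Zfp719, Zfp467 and Zfp963 were lower in MYC_Recur than in MYC_OFF, at -4.77 ± 0.88, -5.53 ± 0.78 and -3.79 ± 0.46. The limma adjusted p was 2.40e-04 for Zfp719 and 5.59e-06 for Zfp963, and none is given for Zfp467. Zfp383, a KRAB gene, read 1.56, 1.08 and 1.68 in MYC_Recur, against 77.03, 14.1 and 5.88 in MYC_OFF (-3.05 ± 0.67, adjusted p = 0.00111), and Zfp46 read 0.26, 0.47 and 0.19, against 20.4, 10.5 and 1.83 (-2.77 ± 0.50, adjusted p = 1.95e-04). In both genes the MYC_OFF libraries differed among themselves by more than 10-fold and still lay above all MYC_Recur libraries. Among the rises, Zfp637, again with no p, read 44.96, 12.9 and 20.9 in MYC_Recur, against 0.88, 0.65 and 2.87 in MYC_OFF (3.39 ± 0.47). Zfp410 read 15.9, 9 and 11.1 in MYC_Recur, against 2.1, 0.8 and 0.54 in MYC_OFF (2.63 ± 0.35, limma adjusted p = 1.24e-05). Zfp207, Zfp706, Zfp106, Zfp622, Zfp292, Zfp13, Zfp511 and Zfp362 were also higher in MYC_Recur, by 1.89 to 2.42.

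MYC_Recur against MYC_HCC sets the tumors labelled Recur beside MYC tumors. Only 26 members were called, 18 higher and 8 lower in MYC_Recur, 11.1% beside 10.8% of all genes (7.66% higher, beside 6.9%; 3.4% lower, beside 3.93%). Under either other scaling the split was 13 and 11, beside 5.3% and 5.25% of all genes with median of ratios and 5.58% and 5.12% with the trimmed mean. Without MYC_HCC 4 and 5 the higher count was 7, without MYC_HCC 5 or MYC_Recur 2 it was 11, and without MYC_Recur 3 the lower count was 3 and without MYC_OFF 1 it was 13. Zfp964, a KRAB gene on chromosome 8 like Zfp963, read 19.6, 27.2 and 12.95 in MYC_Recur, against 0.31, 0.16, 0.34, 0.31 and 0.18 in MYC_HCC (3.998 ± 0.50, limma adjusted p = 9.09e-05). Zfp964 also read 4.34, 3.5 and 16.1 in MYC_OFF, above every MYC_HCC library. Zfp963 was not called in MYC_Recur (1.32 to 3.24, against 0.5 to 2.66 in MYC_HCC, adjusted p = 0.467). Zfp39, a KRAB gene, read 23.2, 13.6 and 19.99 in MYC_Recur, against 1.99, 2.78, 2.45, 1.46 and 1.48 in MYC_HCC (2.71 ± 0.36, limma adjusted p = 1.56e-04).

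Zfp277, without a KRAB match, read 42.3, 83.2 and 42.8 in MYC_Recur, against 13.6, 20.1, 10.04, 10.96 and 10.3 in MYC_HCC (1.998 ± 0.32, limma adjusted p = 6.90e-04), and all 3 MYC_Recur libraries were above the other 16. Zfp454 (1.99 ± 0.45) and Zfp811 (1.76 ± 0.26) were also higher in MYC_Recur, the call of Zfp454 being lost without MYC_Recur 1. Zfp462 was called at 2.79 ± 0.87 (limma adjusted p = 0.0464), a call lost without any 1 of 15 libraries and without MYC_HCC 4 and 5 together. Zfp777 was the largest fall (-2.73 ± 0.34, limma adjusted p = 8.91e-05). Zfp51 read 0.58, 0.85 and 0.29 in MYC_Recur, against 5.28, 4.23, 4.14, 4.7 and 4.47 in MYC_HCC (-1.83 ± 0.24, adjusted p = 1.45e-04), with no overlap. Zfp472 (-1.42 ± 0.36), Zfp961 (-1.24 ± 0.33) and Zfp386 (-1.09 ± 0.29) were lower as well, and each of these calls was lost without MYC_Recur 3. That of Zfp961 was also lost without MYC_HCC 4 and 5 together.

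MYC_Twist1_HCC against MYC_HCC compares the tumors labelled Twist1 with MYC tumors within the earlier deposit. Of the members 12 were higher and 5 lower in MYC_Twist1_HCC, 7.23% beside 6.43% of all genes (5.11% higher, beside 3.2%; 2.13% lower, beside 3.23%). The counts were 6 higher without MYC_HCC 5 or MYC_Twist1_HCC 5, 1 lower without MYC_Twist1_HCC 5, and 5 higher and 2 lower without MYC_HCC 4 and 5. After Rsl1, the largest rise was that of Zfp454, a KRAB gene, with 2.29, 4.29, 4.01, 1.93 and 10.8 in MYC_Twist1_HCC, against 0.39, 0.15, 0.13, 0.43 and 0.31 in MYC_HCC (1.96 ± 0.39, limma adjusted p = 0.00730). Zfp811 read 2.13 to 5.35 in MYC_Twist1_HCC, against 0.34 to 1.47 in MYC_HCC (1.45 ± 0.23, adjusted p = 0.00128), and Zfp59 read 3.3 to 9.27, against 1.57 to 2.1 (1.16 ± 0.25, adjusted p = 0.0105). The calls of Zfp454, Zfp811 and Zfp59 held under every alternative run. Zfp316, Zfp952, Zfp647 and Zfp781 were called at 1.11 to 1.59 and each call was lost without MYC_HCC 4 and 5 together. Those of Zfp316, Zfp952 and Zfp647 were also lost without MYC_HCC 5 alone, without MYC_Twist1_HCC 5 alone, and for the last pair without several other single libraries.

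In the other direction, Zfp326 read 2.22, 4.19, 1.67, 5.12 and 3.62 in MYC_Twist1_HCC, against 15.6, 22.5, 29.02, 14.6 and 13.8 in MYC_HCC (-2.21 ± 0.49, limma adjusted p = 0.0130). Every MYC_Twist1_HCC library lay below every MYC_HCC library. Zfp207 was lower too (-1.001 ± 0.24, limma adjusted p = 0.0184), a call lost without MYC_Twist1_HCC 5 and without MYC_HCC 4 and 5. Zfp280d was called at -0.62 ± 0.18 (limma adjusted p = 0.0473), which was lost without any 1 of 14 libraries and without MYC_HCC 4 and 5 together.

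MYC_Twist1_OFF against MYC_OFF, both from the new deposit, gave no called member (limma; 5 at an unadjusted p under 0.05), beside 0.00755% of all genes; the members' median log2 fold change was 0.16 and that of all genes 0.06. With 3 libraries in each group a difference can be missed: for Zfp719 the estimate carried an SE of 0.88. Apart from Rsl1, which was chosen with its levels known and is only described above, the interaction of OFF and Twist1 called no member. Of the members, Rsl1 included, 19 had an unadjusted p under 0.05. Of all genes, 0.0981% were called (0.0226% higher and 0.0755% lower).

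The family splits by domain. A KRAB match, at least 15 of 27 fixed positions of a KRAB pattern in the longest translated GENCODE transcript, was found together with C2H2 fingers in 113 members, which had a median of 11 fingers. Another 113 had fingers and no KRAB match, with a median of 7 fingers; 2 had a KRAB match and no counted finger and 7 had neither, among them the CCCH genes Zfp36, Zfp36l1 and Zfp36l2. In MYC_OFF against MYC_HCC, 37 of the KRAB members were higher (32.7%) and 28 lower (24.8%), with a median log2 fold change of 0.22. Of those without KRAB 22 were higher (19.5%) and 44 lower (38.9%), with a median of -0.37. The shares over all genes were 18.9% and 39.4%, with a median of -0.38, so the members without KRAB were near genes in general. In MYC_Twist1_OFF against MYC_Twist1_HCC the counts were 22 and 22 with KRAB (19.5% each, median 0.08). They were 19 and 38 without (16.8% and 33.6%, median -0.28), beside 13.1% and 33.5% of all genes. With median of ratios the KRAB counts became 54 and 17, and 36 and 10. Those without KRAB became 33 and 32 (29.2% and 28.3%), and 27 and 24 (23.9% and 21.2%). The all-gene shares were then 28.9% and 26.7%, and 21.6% and 20.9%. Without MYC_HCC 4 and 5, MYC_OFF against MYC_HCC gave 29 and 28 with KRAB and 16 and 46 without. Part of these counts also comes with the mean that chose the members: of those averaging at least 2 both in and outside the OFF groups, 26 of 83 with KRAB were higher and 13 lower in MYC_OFF against MYC_HCC (median 0.38), and 20 of 93 without KRAB were higher and 29 lower (-0.20). Of the genes held to the same means, 15.9% were higher and 43.5% lower, with a median of -0.495. No test of the difference between the classes was made.

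In MYC_Recur against MYC_OFF the KRAB members were 31 higher and 19 lower as deposited (27.4% and 16.8%, median 0.03). Without KRAB 40 were higher and 14 lower (35.4% and 12.4%, median 0.58), near the 37.5% and 12% of all genes. The KRAB direction turned to 17 higher and 40 lower with median of ratios, where 20.8% and 22.5% of all genes were called. In MYC_Twist1_HCC against MYC_HCC, 10 of the KRAB members were higher (8.8%) and 1 lower (0.9%). Without KRAB 1 was higher (0.9%) and 4 were lower (3.5%), beside 3.2% and 3.23% of all genes. Without MYC_HCC 4 and 5 these counts were 5 and 0, and 0 and 2. By number of fingers, MYC_OFF against MYC_HCC had 11 higher and 36 lower among 86 members with 1 to 8 fingers (12.8% and 41.9%). There were 31 and 19 among 85 with 9 to 12 (36.5% and 22.4%), and 17 and 17 among 55 with 13 or more (30.9% each). Beside these, 18.9% and 39.4% of all genes were called. Finger number and KRAB go together, so these counts are not separate from those above.

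Of the 235 members 50 lie on chromosome 7, 28 on chromosome 17 and 20 on chromosome 13, and 110 fall in 21 runs of at least 3 members whose starts are at most 500 kb apart (GENCODE annotation of GRCm38). Reads of near-identical neighbours may be shared between them, so values within a run carry that uncertainty. The run with Rsl1 spans chr13:67173182-67827002 and holds 10 members, 9 of them named Zfp. In MYC_OFF against MYC_HCC 6 were higher and 1 lower, with a median of 1.45, and in MYC_Twist1_OFF against MYC_Twist1_HCC 5 were higher and 2 lower, with a median of 1.05, beside all-gene medians of -0.38 and -0.32. The all-gene shares, higher and then lower, were 18.9% and 39.4% in the first and 13.1% and 33.5% in the second. The run is described because it holds Rsl1, itself 1 of the rises. Zfp738, also among the rises in both comparisons, passed the mean through the OFF groups, so part of these counts comes with the choice. Under the other scalings 6 or 7 and 5 were higher. The log2 fold change of Rsl1 exceeded that of each neighbour in both.

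Zfp738, in that run, averaged under 2 outside the OFF groups and passed the mean through them, so it is described with no p. It read 20.6, 5.78 and 3.09 in MYC_OFF, against 0.7, 1.41, 1.05, 0.89 and 0.27 in MYC_HCC (2.21 ± 0.44). In MYC_Twist1_OFF it read 10.1, 14.4 and 4.01, against 1 to 2.89 in MYC_Twist1_HCC (1.69 ± 0.44). Zfp87 read 7.5, 10.2 and 6.9 in MYC_OFF, against 1.33 to 2.41 in MYC_HCC (1.74 ± 0.23, limma adjusted p = 5.75e-06), and 8.32, 14.1 and 10.9 in MYC_Twist1_OFF, against 2.67 to 4.17 in MYC_Twist1_HCC (1.45 ± 0.23, adjusted p = 7.55e-05). Both had every OFF library above every other. Zfp595 and Zfp874a were higher in both comparisons too (1.68 and 1.25 in the first, 1.73 and 1.68 in the second), while Zfp874b, next to Zfp874a, was lower in both (-1.20 and -1.06, limma adjusted p = 0.00426 and 0.0129). The call of Zfp595 in the first was lost without MYC_OFF 1, which read 36 where the other 2 read 5.05 and 2.24. In MYC_Recur against MYC_OFF, 2 members of the run were higher and 5 lower, or 2 and 7 under either other scaling.

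**Figure D4:**
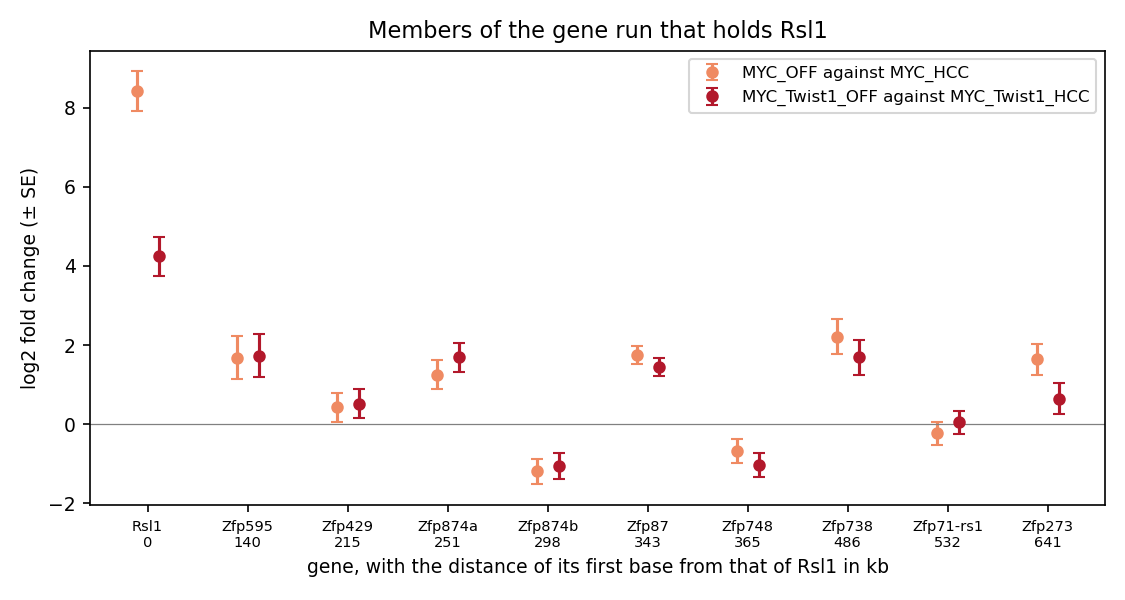
Log2 fold change with SE for the 10 members of the run with Rsl1 on chromosome 13, in MYC_Twist1_OFF against MYC_Twist1_HCC (red) and MYC_OFF against MYC_HCC (orange), ordered by the distance of the gene's first base from that of Rsl1 in kb. Rsl1 stands at 8.43 and 4.24; of the others, Zfp738 is highest in MYC_OFF against MYC_HCC (2.21), and Zfp874b lies below 0 in both.

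A run of 10 members at chr17:21450374-22456689 (Zfp51 to Zfp946) holds 7 of the 16 promoters with CACGTG shown above, at 5 distinct sites. In MYC_OFF against MYC_HCC 5 of its members were higher and 2 lower (median 0.36), and in MYC_Twist1_OFF against MYC_Twist1_HCC 2 were higher and 2 lower (0.28). Zfp947 read 79.7, 9.52 and 11.8 in MYC_OFF, against 2.05, 2.1, 4.47, 1.05 and 1.26 in MYC_HCC (2.89 ± 0.57, limma adjusted p = 3.37e-04), and 55.8, 53.1 and 28.2 in MYC_Twist1_OFF, against 1.4 to 8.7 in MYC_Twist1_HCC. Zfp820 was called in both (1.05 ± 0.41 and 1.09 ± 0.41), the first call being lost without MYC_HCC 2 or 3 or any MYC_OFF library. Zfp943 and Zfp758, which share the printed letters, were at 0.78 ± 0.31 and 0.68 ± 0.24 in MYC_OFF against MYC_HCC (limma adjusted p = 0.0415 and 0.0241), while Zfp946 was not called (adjusted p = 0.758). The shares over all genes tested, higher and then lower, were 18.9% and 39.4% in the first of these comparisons and 13.1% and 33.5% in the second.

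All 16 members with CACGTG together were 7 higher and 2 lower in MYC_OFF against MYC_HCC (median 0.46), beside 43 higher and 60 lower of the 170 with a promoter and no match (-0.17), and 4 and 2 beside 30 and 48 in MYC_Twist1_OFF against MYC_Twist1_HCC. The all-gene shares, higher and then lower, were 18.9% and 39.4%, and 13.1% and 33.5%. As 7 of the 16 are neighbours, they are not independent genes. The 2 members shown first differ: Zfp512, with the first base of the motif at -59 from its start, read 15.96, 45.7 and 45.4 in MYC_OFF, against 3.7, 0.93, 3.4, 3.28 and 3.18 in MYC_HCC, and Zfp207, with it at -26, was lower. The members' promoters held a median of 16 CG pairs in 300 bases, beside 7 over all genes, which were not held to the mean of 2 that chose the members.

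Among genes that KRAB proteins work with, taken from a list of 29, 28 were tested. In MYC_OFF against MYC_HCC 20 were lower and 1 higher, beside 39.4% and 18.9% of all genes. The median log2 fold change was -1.10, beside -0.38 for all genes. In MYC_Twist1_OFF against MYC_Twist1_HCC 15 were lower and 1 higher (median -0.73), beside 33.5% and 13.1% of all genes. In MYC_Recur against MYC_OFF 17 were higher and 1 lower, beside 37.5% and 12%. With median of ratios these counts were 12 lower and 4 higher, 9 and 2, and 10 higher and 2 lower. The all-gene shares were then 26.7% lower and 28.9% higher, 20.9% and 21.6%, and 20.8% higher and 22.5% lower. Trim28, the corepressor itself, averaged 30.1 ± 4.79 in MYC_OFF and 88.6 ± 32.9 in MYC_HCC (SD, n = 3 and 5; -1.44 ± 0.30 with SE, limma adjusted p = 5.96e-04) and 36.6 ± 16.6 in MYC_Twist1_OFF and 96.96 ± 9.12 in MYC_Twist1_HCC (-1.47 ± 0.30, adjusted p = 7.86e-04). Setdb1 averaged 5.03 ± 0.87 in MYC_OFF and 18.9 ± 1.95 in MYC_HCC (-1.73 ± 0.20, limma adjusted p = 1.56e-06). The histone methyltransferase gene Suv39h1 had the largest fall (-3.33 ± 0.35, adjusted p = 6.39e-07), and Morc3, a nuclear ATPase gene, was the 1 that was higher (3.35 ± 0.49, adjusted p = 1.73e-05).

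A list drawn up for sex-limited genes of mouse liver held C4a, Cyp2d9, Hsd3b5 and the Mup genes, 23 in all, of which 11 were tested. Whether Rsl1 acts on any of them was not tested, and most of the list is Mup genes. In MYC_OFF against MYC_HCC none was higher and 7 were lower (median -1.44, beside -0.38 for all genes, of which 39.4% were lower). In MYC_Twist1_OFF against MYC_Twist1_HCC none was higher and 2 were lower (median -0.79, beside -0.32 for all genes, of which 33.5% were lower), a lower share than among all genes. With median of ratios these were 1 and 4, and 2 and 2, and without MYC_HCC 4 and 5 they were 1 and 6 in both. Mup3 averaged 2.93 ± 2.61 in MYC_OFF and 126 ± 186 in MYC_HCC (SD, n = 3 and 5; -4.12 ± 0.78 with SE, limma adjusted p = 2.27e-04), and the Mup genes have near-identical copies, so single Mup values are uncertain. Cyp2d9 averaged 2.88 ± 1.04 in MYC_OFF and 16.6 ± 24.3 in MYC_HCC (adjusted p = 0.0478), and C4a did not pass (adjusted p = 0.473). Hepatocyte markers were lower in the same libraries, and sex is not given, so what part either has in these values was not tested.

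Some members differed little between groups. The largest difference between any 2 group means on the log2(value + 1) scale was 0.24 for Zfp189, 0.30 for the KRAB gene Zfp53, 0.34 for Zfp750, which drives epidermal differentiation, 0.35 for the KRAB gene Zfp282 and 0.37 for Zfp322a. Zfp189 read 3.02 to 3.71 in MYC_Recur, 3.31 to 4.08 in MYC_Twist1_OFF, 2.92 to 4.5 in MYC_OFF, 3.24 to 4.65 in MYC_Twist1_HCC and 3.35 to 6.18 in MYC_HCC, and passed in no comparison. Other zinc finger families in the table were as follows: of 33 Zbtb genes 9 were higher and 8 lower in MYC_OFF against MYC_HCC (median -0.28), and of 11 Zscan and Zkscan genes 2 were higher and 1 lower (-0.05). Beside these, 18.9% of all genes were higher and 39.4% lower.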

How the data were processed

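The deposited table holds a normalized signal for each symbol in 19 columns, to 2 decimals. Its formula is not given in the labels, so depth is unknown and no counting interval is given. The submitters' processing notes name mm10 and the tools STAR, featureCounts, DESeq2, Picard and Trimmomatic; whether counting used strand is not given. Of 19511 symbols, 25 bare numbers were left out. Values were used as deposited. Genes with a value of at least 1 in at least 3 libraries (13253) entered limma 3.58.1 (R 4.3.3) on log2(value + 1) with an intensity trend, as a single fit to all 5 groups (14 residual degrees of freedom), for 7 comparisons. Tests are two-sided, with Benjamini-Hochberg adjustment over all genes in each comparison, and the threshold for a call is 0.05. Changes on this scale understate changes of low genes. The step was tested on simulated data. Replicate numbers were not used to pair libraries in this fit. Alternatives were another pseudocount (0.1), no filter, median-of-ratios and trimmed-mean scaling, only the groups compared, a replicate block, each library left out, MYC_HCC 4 and 5 left out and, added after seeing the data, the mean of 2 asked both in and outside the OFF libraries. Positions and coding sequences are from the GENCODE annotation of GRCm38 (all 235 members matched, 5 by an older symbol), and promoters from RefSeq. Named are Rsl1; per comparison the up to 8 largest called rises and falls whose libraries do not overlap (some only counted); members with a listed role; the 5 most even; those at the mean of 2; members of the runs; and genes of the lists. Chd4 and those shown with promoter sequence were added beside them. Members and lists were chosen with earlier results of these data known.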

Additional observations from a re-analysis of the deposited data

Results flagged for a closer look

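For 64 of the zinc finger genes named, the 128 groups of 5 libraries were searched for a library far from the rest, at a gap that chance alone exceeds in about 1 group of 20. Other named members, such as those named only for their run, were not searched. In 5 groups (3.9%) 1 library stood off. Zfp189 read 4.65 in MYC_Twist1_HCC 2, where the other 4 read 3.24 to 3.36. Zfp512 read 0.93 in MYC_HCC 2, where the other 4 read 3.18 to 3.70. Zfp575 read 3.57 in MYC_Twist1_HCC 2 and was listed at 0 in the other 4. Zfp719 was listed at 0 in MYC_HCC 2, where the other 4 read 0.58 to 0.83. Zfp947 read 1.40 in MYC_Twist1_HCC 5, where the other 4 read 5.66 to 8.70. The OFF difference of Rsl1 in the Twist1-labelled tumors minus that in the MYC tumors was -4.18 on the log2 scale. Over the alternative fits it lay between -4.92 and -3.88. Rsl1 was added with its levels known, so this is a description and no call is read from it. The OFF libraries of both kinds overlapped and the HCC libraries did not.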

How the results depend on the processing

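Leaving out 1 library at a time moved the members called higher and lower to 6 to 17 and 1 to 6 in MYC_Twist1_HCC against MYC_HCC, 43 to 63 and 62 to 82 in MYC_OFF against MYC_HCC, 29 to 48 and 38 to 69 in MYC_Twist1_OFF against MYC_Twist1_HCC, 61 to 85 and 22 to 40 in MYC_Recur against MYC_OFF, 11 to 21 and 3 to 13 in MYC_Recur against MYC_HCC, 0 to 0 for both in MYC_Twist1_OFF against MYC_OFF, and 0 to 1 for both in the interaction. With no filter, MYC_Twist1_HCC against MYC_HCC gave 7 higher and 3 lower and the interaction 0 lower; without MYC_HCC 4 and 5 these were 5, 2 and 0, and MYC_Recur against MYC_HCC gave 7 higher. Median-of-ratios scaling gave 65 higher and 34 lower in MYC_Twist1_OFF against MYC_Twist1_HCC and 45 higher and 70 lower in MYC_Recur against MYC_OFF, where the trimmed mean gave 59 lower and a fit of only the groups compared 17 lower; the causes were not tested. Holding the members to a mean of at least 2 both in and outside the OFF libraries, chosen after seeing the data, left fewer members and gave 45 lower in MYC_OFF against MYC_HCC and 37 lower in MYC_Twist1_OFF against MYC_Twist1_HCC. Deviations of same-numbered libraries of different groups correlated at r from -0.214 to 0.384 (median 0.022). Those of other numbers correlated at -0.449 to 0.28 (median 0.003). Of 19 libraries, 7 correlated best with their own number, which does not settle whether the numbers pair libraries. The replicate block gave 9 members higher in MYC_Recur against MYC_HCC in place of 18. Of 149 called results of named members 50 lost their call under at least 1 alternative and none changed sign. With 3 libraries in a group and unknown depth, small differences and values near 0 are not resolved.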
